A study of Homo sapiens with 2 samples.

Results

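The genes described here are 10 components of the route by which a cell shows fragments of its own proteins to T cells on MHC class I molecules: the class I chains HLA-B and HLA-F, their shared light chain B2M, the peptide transporter subunits TAP1 and TAP2, tapasin (TAPBP), the immunoproteasome subunits PSMB8, PSMB9 and PSMB10, and the transcriptional activator NLRC5. They were taken from a fixed list of names, and every probe set that the platform annotation assigned to exactly 1 of them was used, which gave 21 probe sets for 10 genes, out of 19775 genes and 54675 probe sets in all. No probe set assigned to several genes listed any of the 10. The RNA came from MDA-MB-231, an established human breast cancer line that is triple-negative, without hormone receptors or ERBB2 amplification. The arrays compare siRNA against KMO, the enzyme kynurenine 3-monooxygenase, with a control siRNA, 1 array each, both 48 h after transfection; neither the growth nor the treatment protocol names an interferon. The array names in the descriptions carry the strings shLUC and shK421, so the kind of construct is not settled by the labels. With 1 array per condition no difference has a replicate check, no p-value was computed, and every value describes this pair of cultures.

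Class I presentation begins in the proteasome, which cuts proteins in the cytosol into peptides. Interferon makes cells build the immunoproteasome, in which PSMB8, PSMB9 and PSMB10 replace the catalytic subunits PSMB5, PSMB6 and PSMB7 of the constitutive particle and shift cutting towards peptides that fit class I grooves. TAP1 and TAP2 form the transporter that moves these peptides into the endoplasmic reticulum, where tapasin holds the transporter beside an empty class I chain bound to B2M. NLRC5 enters the nucleus and switches on class I genes. Tumour cells often carry lower levels of these components, which makes them harder for T cells to see.

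Values are log2 levels after robust multi-array averaging (RMA), and a difference is the KMO siRNA array minus the control array, so that a difference of 1 is 2-fold. A probe set or gene counted as measured where its mean over both arrays was at least 6, and a gene is represented by the probe set whose mean level was highest. Probe sets ending in _x_at can also bind transcripts of other genes, and those ending in _s_at match several transcripts, usually of 1 gene. Of the 21 probe sets, 5 ended in _x_at and 6 in _s_at. Across the 8997 measured genes the median difference was 0.04. The 3 probe sets of KMO lay between 2.11 and 2.95 over both arrays, under the minimum, so the knockdown itself could not be read. The line's labels were set against marker genes: VIM stood at 12.90 in the control array and 12.96 in the KMO siRNA array. The hormone receptor genes ESR1 and PGR were under the minimum, whereas ERBB2 was measured, at 7.44 and 7.37. Of 13 leukocyte markers with a probe set, 12 were under the minimum, among them the common leukocyte antigen PTPRC, and LAPTM5 was measured, at 8.51 and 8.40.

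The immunoproteasome subunits and TAP2 were higher in the KMO siRNA array, and the class I chains, B2M and TAP1 were slightly lower. In RNA of a whole culture, a change in the share of cells and a change in RNA per cell cannot be told apart. Of 9 measured genes, 5 were higher and 4 lower, beside 54.8% of all measured genes above 0 and 44.1% below 0. By at least 1.5-fold, 1 of the 9 was higher, PSMB10, against 5.19% of all measured genes, and 0 were lower, against 5.41%. At 2-fold, 0 were higher, against 0.856%, and 0 lower, against 1.39%. The counts are therefore near the background, and what follows concerns sizes that many other genes reached. The median of the 9 genes was 0.11, but its sign was not settled: it was -0.045 over the 8 members measured when probe sets were averaged per gene, and 0.52 over the 4 measured with no _x_at or _s_at probe sets.

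**Figure D1:**
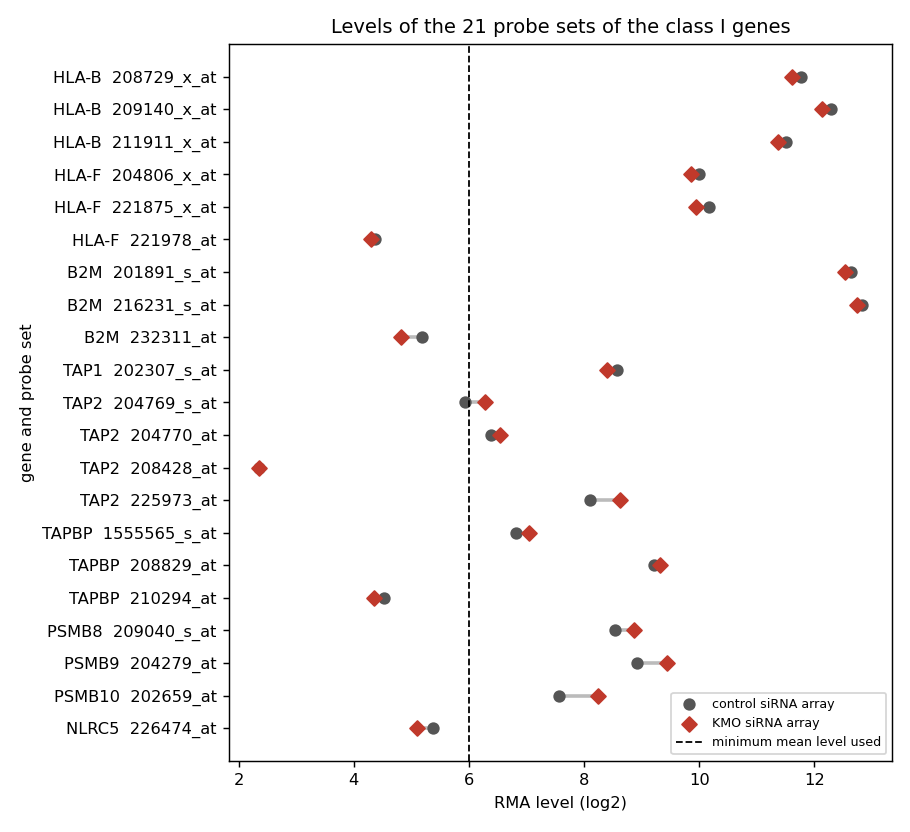
RMA level (log2, x axis) of each of the 21 probe sets (y axis) in the control siRNA array (circles) and the KMO siRNA array (diamonds), with the minimum mean level of 6 as a dashed line. The diamonds of PSMB8, PSMB9, PSMB10 and the probe set 225973_at of TAP2 lie to the right of their circles, and those of HLA-B lie just to the left.

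The immunoproteasome subunits were the members with a common upward difference. PSMB10, which encodes the trypsin-like subunit, stood at 7.57 in the control array and 8.24 in the KMO siRNA array, a difference of 0.67 or 1.59-fold. PSMB9, which takes the place of the caspase-like subunit, stood at 8.93 and 9.44, a difference of 0.51 or 1.43-fold. PSMB8, the chymotrypsin-like subunit, stood at 8.54 and 8.86, a difference of 0.32 or 1.25-fold. All 3 were higher, and each was measured by 1 probe set, of which that of PSMB8 ends in _s_at, so no further probe set bears on any of them. Of measured genes as a whole, 3.45% had a difference at least as high as that of PSMB10, 7.36% as that of PSMB9 and 18.1% as that of PSMB8. Among genes within 0.5 log2 units of the same mean level, the shares were 4.28% of 2334 genes, 7.02% of 1553 genes and 19.1% of 1948 genes.

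The constitutive subunits that these 3 replace differed less. PSMB5, the partner of PSMB8, stood at 9.99 in the control array and 10.07 in the KMO siRNA array, a difference of 0.08. PSMB6, the partner of PSMB9, stood at 10.44 and 10.55, a difference of 0.11. PSMB7, the partner of PSMB10, stood at 10.85 and 11.14, a difference of 0.29. The constitutive subunits were thus higher as well, and the difference of the immunoproteasome subunit exceeded that of its partner in all 3 pairs. The excess was 0.24 for PSMB8 over PSMB5, 0.40 for PSMB9 over PSMB6 and 0.38 for PSMB10 over PSMB7. These are ratios of 1.18, 1.32 and 1.30 between the folds of each pair, with no replicate to give their error. With the mean of all probe sets the excess of PSMB10 over PSMB7 was 0.58, since the other PSMB7 probe set lies under the minimum, at 5.36 and 5.24.

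**Figure D2:**
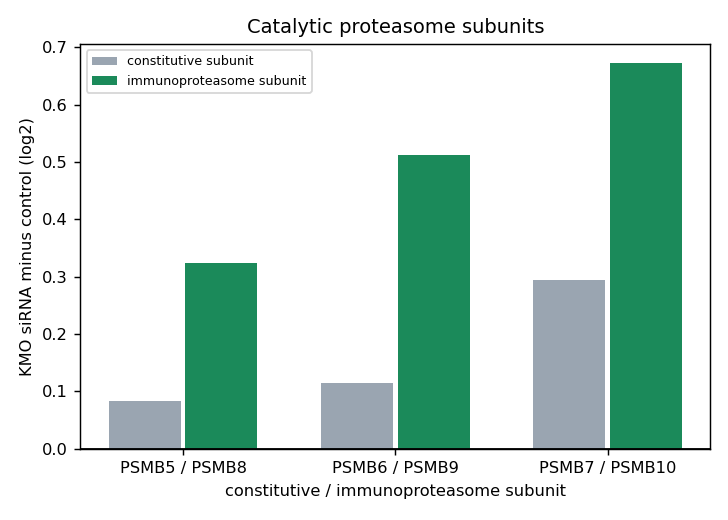
Difference between the arrays (KMO siRNA minus control, log2, y axis) for the 3 pairs of catalytic proteasome subunits (x axis), with the constitutive subunit in grey and the immunoproteasome subunit in green; each bar is 1 gene in 1 pair of arrays, with no error bar. The green bar is the taller in every pair, at 0.32, 0.51 and 0.67 against 0.08, 0.11 and 0.29.

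The rest of the proteasome gives the background for these values. Of 19 measured genes for other core subunits, assembly factors and activators, 18 were higher and 1 lower, with a median of 0.21. By at least 1.5-fold, 1 of the 19 was higher, against 5.19% of all measured genes. It was PSMG1, an assembly chaperone of the core particle, which stood at 9.17 and 9.86, a difference of 0.69. PSME3, a subunit of the nuclear activator of the proteasome, differed by 0.50, and the assembly chaperone PSMG3 by 0.41. The 10 measured core subunits other than the catalytic ones ran from 0.03 to 0.34 with a median of 0.19, so PSMB9 and PSMB10 lay above all 10 and PSMB8 lay inside their range. POMP, the maturation factor that both kinds of core particle use, stood at 10.95 and 11.18, a difference of 0.23. PSME1, a subunit of the interferon-inducible activator of the proteasome, stood at 10.49 and 10.41, a difference of -0.08, and was the 1 gene of the 19 that was lower.

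The transporter subunits differed in opposite directions. TAP2 with its highest probe set, 225973_at, stood at 8.09 in the control array and 8.63 in the KMO siRNA array, a difference of 0.54 or 1.45-fold. Its probe set 204770_at stood at 6.38 and 6.55, a difference of 0.16. Its probe set 204769_s_at stood at 5.93 and 6.28, a difference of at least 0.28 with the control level taken as 6. All 3 measured TAP2 probe sets were higher in the KMO siRNA array, with differences from 0.16 to 0.54, and the remaining one, 208428_at, stood at 2.36 on both arrays. TAP1 had 1 probe set, 202307_s_at, at 8.57 and 8.41, a difference of -0.17, or 1.12-fold lower. Of the measured genes, 25.2% had a difference at or below that of TAP1, and 6.58% one at or above that of TAP2.

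Tapasin differed little. TAPBP with probe set 208829_at stood at 9.21 in the control array and 9.32 in the KMO siRNA array, a difference of 0.11, and with 1555565_s_at at 6.81 and 7.05, a difference of 0.23. Its probe set 210294_at was under the minimum, at 4.52 and 4.34. Of the measured genes, 40.8% had a difference at least as high as that of TAPBP.

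The class I chains and B2M were lower by small amounts with every measured probe set. HLA-B, a chain that presents peptides to cytotoxic T cells, stood at 12.29 in the control array and 12.14 in the KMO siRNA array with 209140_x_at, a difference of -0.15, or 1.11-fold lower. With 208729_x_at it stood at 11.77 and 11.61, a difference of -0.15, and with 211911_x_at at 11.51 and 11.37, a difference of -0.13. The 3 probe sets of HLA-B were thus alike, from -0.15 to -0.13, all on the lower side. HLA-F, a nonclassical chain that receptors of natural killer cells can bind, stood at 10.17 and 9.94 with 221875_x_at, a difference of -0.23. It stood at 10.00 and 9.86 with 204806_x_at, a difference of -0.14. The probe set of HLA-F with neither suffix, 221978_at, was under the minimum at 4.37 and 4.30.

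B2M, the light chain without which class I chains do not reach the surface, stood at 12.83 in the control array and 12.74 in the KMO siRNA array with 216231_s_at. It stood at 12.63 and 12.54 with 201891_s_at. The differences were -0.10 and -0.09, or 1.07-fold lower with each, and the remaining probe set, 232311_at, was under the minimum at 5.19 and 4.82. All 7 measured probe sets of HLA-B, HLA-F and B2M were lower, from -0.23 to -0.09, whereas 44.3% of all measured named probe sets were lower and 54.6% higher. Such values are common: 26.9% of measured genes had a difference at or below that of HLA-B, 19.6% at or below that of HLA-F and 32.6% at or below that of B2M.

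Every measured probe set of HLA-B and HLA-F ends in _x_at, and class I chains are paralogs, so these values cannot be assigned to 1 gene with certainty. The 8 _x_at probe sets of the other chains HLA-C and HLA-G were all lower as well, so that all 13 such probe sets over the 4 genes ran from -0.26 to -0.11. Those of HLA-E, 200905_x_at and 217456_x_at, lay outside that range, at 0.02 and -0.02. How far these probe sets read the same transcripts was not tested. Of the other class I and class I-like genes, 5 of 6 measured ones were lower, with a median of -0.16. MR1, which presents vitamin metabolites of microbes to T cells, stood at 7.52 and 6.92, a difference of -0.60, and its 4 measured probe sets ran from -0.60 to -0.20. FCGRT, the chain of the neonatal Fc receptor that also pairs with B2M, stood at 6.90 and 6.38, a difference of -0.52. The iron regulator HFE differed by -0.17 with its highest probe set, 206087_x_at. Its other measured probe sets differed by 0.24 (211327_x_at), 0 (211329_x_at) and -0.07 (211330_s_at), so its direction depended on the probe set. HLA-E, which signals to natural killer cells, differed by 0.02 with its highest probe set, 200905_x_at, and by -0.16 with the probe set that has neither suffix.

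**Figure D3:**
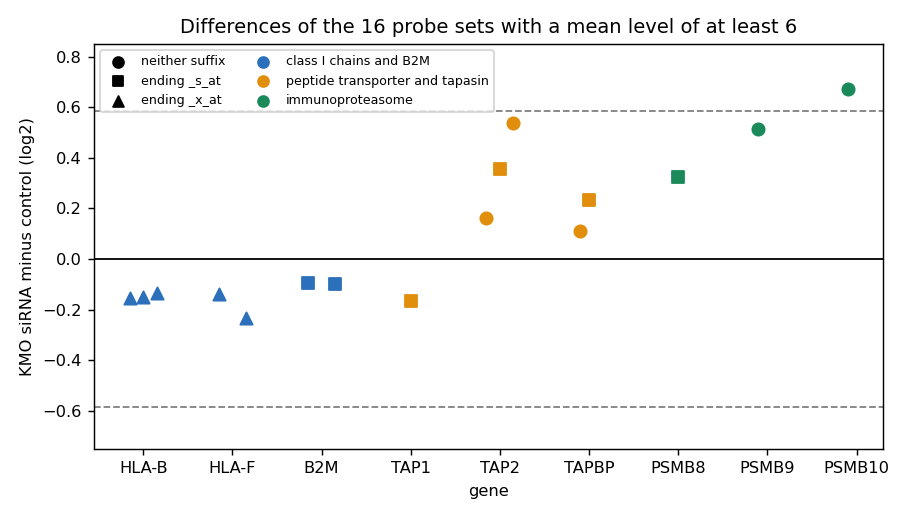
Difference between the arrays (KMO siRNA minus control, log2, y axis) of the 16 measured probe sets by gene (x axis), coloured by role and with the marker showing the suffix of the probe set; dashed lines mark 1.5-fold. All 7 points of HLA-B, HLA-F and B2M and the point of TAP1 lie below 0, the other 8 lie above 0, and the point of PSMB10 at 0.67 is the only one outside the lines.

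Among the members, the direction went together with the kind of probe set. All 5 measured _x_at probe sets were lower, 3 of the 6 _s_at ones were higher and 3 lower, and all 5 with neither suffix were higher. No shares by suffix over all measured probe sets are given beside these counts. In the other lists _x_at and unsuffixed probe sets went both ways. The 8 _x_at probe sets of HLA-C and HLA-G were lower. Those of HLA-DRB1 (208306_x_at) and NFYC (211251_x_at) were higher, at 0.50 and 0.40. Without a suffix, HLA-DRA (208894_at) was higher, at 0.98, and MR1 (235352_at) lower, at -0.60. The part of the probe design in the split between members was not tested. HLA-B, TAP1 and PSMB8 have no probe set without a suffix, and those of HLA-F and B2M were under the minimum.

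NLRC5, the activator of class I genes, was under the minimum in both arrays. Its 1 probe set, 226474_at, stood at 5.37 in the control array and 5.10 in the KMO siRNA array, so it has no difference that can be used. Among 12 measured regulators of class I genes, 7 were higher and 5 lower, with a median of 0.07 that was -0.14 with no _x_at or _s_at probe sets. IRF1, an interferon-induced activator of class I and immunoproteasome genes, stood at 8.02 and 7.68, a difference of -0.34. RFX5, a DNA-binding subunit of the complex on which NLRC5 acts, stood at 8.74 and 8.70. Its partner RFXAP had a mean under the minimum, at 5.33 and 6.22. By at least 1.5-fold, 0 of the 12 regulators were higher, against 5.19% of all measured genes, and 1 was lower, against 5.41%. The lower one was IRF9, a subunit of the factor that type I interferon activates, at 7.29 and 6.52, a difference of -0.77. The methyltransferase EZH2, which can silence class I genes, differed by 0.45, and NFYC, a subunit of the CCAAT-binding factor, by 0.40.

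Genes of the interferon gamma receptor, signalling and response had no common direction. Of 14 measured, 5 were higher and 9 lower, with a median of -0.11 that was 0.043 with no minimum level. The receptor chains IFNGR1 and IFNGR2 differed by -0.07 and -0.37. By at least 1.5-fold, 1 of the 14 was higher, against 5.19% of all measured genes. It was the tryptophan-degrading enzyme IDO1 (5.48 and 7.46, higher by at least 1.46 with the control level taken as 6). By the same fold 3 were lower, against 5.41%. They were BST2, a surface protein that tethers viruses, at -0.91, the GTPase GBP2 at -0.82, and the adhesion molecule ICAM1 at -0.71.

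Genes that load and trim class I peptides in the endoplasmic reticulum were near 0. Of 9 measured, 5 were higher and 4 lower, 0 of them by 1.5-fold in either direction, with a median of 0.02, or -0.07 with the mean of all probe sets. The trimming peptidases ERAP2 and ERAP1 differed by -0.32 and 0.25. UGGT1, which tests the folding of glycoproteins, differed by 0.22. The lectin chaperones CALR and CANX, which hold class I chains during folding, differed by -0.17 and 0.03, and the loading complex member PDIA3 by 0.10.

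Class II genes, which serve the presentation of peptides from outside the cell, were mostly higher. The HLA genes among them lie in the same chromosomal region as TAP1, TAP2, PSMB8 and PSMB9, but CTSS and CD74 do not. Besides HLA-DRA, the measured HLA genes were HLA-DPA1 at 0.51, HLA-DRB1 at 0.50, HLA-DPB1 at 0.06 and HLA-DMA at -0.01. Of 7 measured class II genes, 6 were higher and 1 lower, with a median of 0.51. By at least 1.5-fold, 3 of the 7 were higher, against the background of 5.19%. HLA-DRA, the alpha chain of HLA-DR, stood at 7.92 in the control array and 8.89 in the KMO siRNA array, a difference of 0.98, and 0.95 with its other probe set. CTSS, a protease that cuts the invariant chain, stood at 7.26 and 7.98, a difference of 0.72. CD74, which encodes that chain, stood at 7.386 and 7.997, a difference of 0.61. CIITA, the class II counterpart of NLRC5, was under the minimum at 4.94 and 4.81. Class II genes are also markers of blood-derived presenting cells; of the 13 leukocyte markers, the control array had a median level of 3.80 and the KMO siRNA array one of 3.84, and their part in the class II values was not tested. The 3 measured ligands of the natural killer receptor NKG2D were all higher, MICB by 0.44, ULBP2 by 0.30 and MICA by 0.14.

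**Figure D4:**
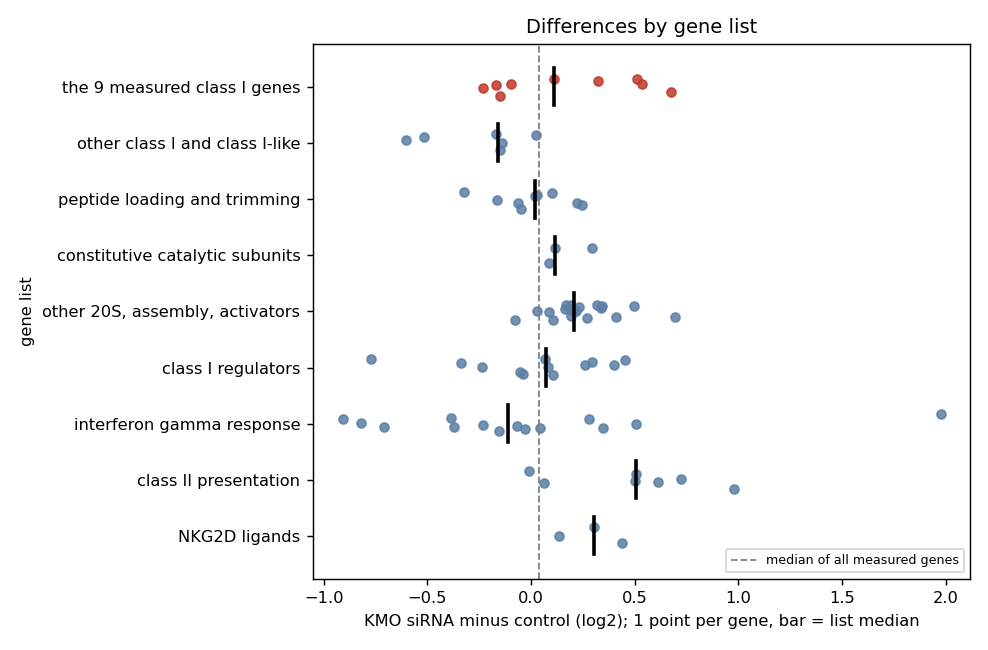
Difference between the arrays (KMO siRNA minus control, log2, x axis) of each measured gene (points) by gene list (y axis), with a black bar at the list median and a dashed line at the median of all measured genes, 0.04. The 9 class I genes (red) have a median of 0.11 and spread on both sides of the line, the class II list has a median of 0.51, and the point furthest to the right is IDO1, drawn at its deposited difference although its control level of 5.48 is under the minimum.

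TAP2, PSMB8, TAP1 and PSMB9 are neighbours among protein-coding genes, in this order, in the RefSeq gene table, between HLA-DOB and the HLA-DM genes. Along this stretch the differences were 0.54, 0.32, -0.17 and 0.51, so TAP1 differed in direction from the genes on both of its sides. Of 30 protein-coding genes from HLA-DRA to TAPBP, a stretch chosen after the values had been seen, 19 were measured, 14 of them higher and 5 lower, with a median of 0.11. Of all measured genes, 54.8% were above 0 and 44.1% below 0. By at least 1.5-fold, 1 of the 19 was higher, HLA-DRA, against 5.19% of all measured genes, and 0 were lower, against 5.41%. Genes without a role in presentation lay on both sides as well, such as WDR46, a ribosome biogenesis factor, at 0.56, and the chromatin reader BRD2 at -0.19.

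**Figure D5:**
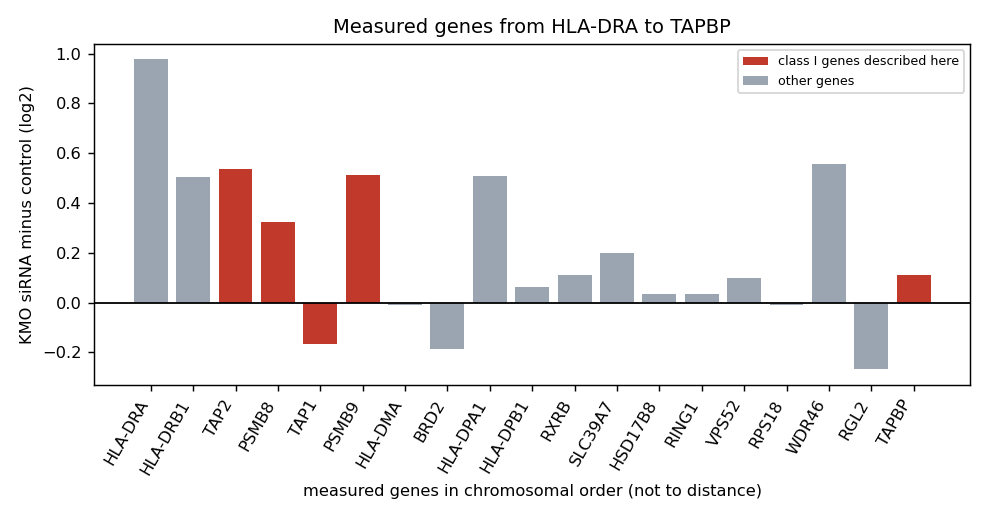
Difference between the arrays (KMO siRNA minus control, log2, y axis) of the 19 measured protein-coding genes from HLA-DRA to TAPBP in chromosomal order (x axis, not to distance), with the class I genes in red and others in grey. The bars of TAP2, PSMB8 and PSMB9 reach 0.54, 0.32 and 0.51, and that of TAP1 between them reaches -0.17.

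The promoters of these genes are shown because TAP1 and PSMB9 share a region from which both are read, in opposite directions, and because they show the interferon-type elements for which this gene group is known. RefSeq (GRCh38.p14) windows of 300 bases, from 250 before to 50 after the start, were found for 9 of the 10 members, 11 windows in all since PSMB8 and TAP1 have 2 starts each. The starts of PSMB9 and TAP1 lie 488 bases apart. The stretches printed here are the 200 bases before the start, 5′ to 3′ on the strand of the gene, and for PSMB8 its second start with 6 bases after it so that the match is whole. They are chr6:32853992-32854191 (PSMB9, + strand), chr6:32853705-32853904 (TAP1, - strand), chr6:32838740-32838939 (TAP2, - strand), chr6:32844042-32844247 (PSMB8, - strand), chr16:67936851-67937050 (PSMB10, - strand) and chr15:44711317-44711516 (B2M, + strand). Capitals mark matches on either strand to GAAANNGAAA, the core of the element that interferon regulatory factors bind, where overlapping matches run together.
PSMB9: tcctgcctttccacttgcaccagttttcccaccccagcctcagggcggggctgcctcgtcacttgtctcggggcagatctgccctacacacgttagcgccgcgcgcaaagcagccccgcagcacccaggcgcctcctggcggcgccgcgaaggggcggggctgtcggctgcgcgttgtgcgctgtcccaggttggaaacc
TAP1: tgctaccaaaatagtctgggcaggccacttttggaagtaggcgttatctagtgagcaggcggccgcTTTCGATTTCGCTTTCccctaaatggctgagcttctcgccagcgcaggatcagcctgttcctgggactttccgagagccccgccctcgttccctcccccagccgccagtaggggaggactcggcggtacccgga
TAP2: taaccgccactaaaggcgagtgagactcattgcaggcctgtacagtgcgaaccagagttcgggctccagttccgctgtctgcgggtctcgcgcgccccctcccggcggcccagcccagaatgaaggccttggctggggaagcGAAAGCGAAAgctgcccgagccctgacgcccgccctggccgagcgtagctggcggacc
PSMB8: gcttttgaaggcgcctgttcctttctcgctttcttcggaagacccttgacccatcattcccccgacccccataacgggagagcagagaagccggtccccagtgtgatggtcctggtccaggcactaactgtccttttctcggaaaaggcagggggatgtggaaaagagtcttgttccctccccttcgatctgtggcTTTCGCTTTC
PSMB10: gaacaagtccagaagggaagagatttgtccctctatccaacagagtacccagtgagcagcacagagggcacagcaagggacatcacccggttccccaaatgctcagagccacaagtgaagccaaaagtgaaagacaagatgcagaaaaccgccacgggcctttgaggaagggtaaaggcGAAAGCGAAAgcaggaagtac
B2M: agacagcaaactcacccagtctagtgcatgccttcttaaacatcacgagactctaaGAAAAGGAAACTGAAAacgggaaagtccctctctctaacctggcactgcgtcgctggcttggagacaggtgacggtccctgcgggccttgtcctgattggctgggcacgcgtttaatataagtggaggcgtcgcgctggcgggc

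This motif was in 7 of the 11 windows of the members (63.6%), against 3.57% of all 35116 windows of the same length. It was found in HLA-F, TAP2, PSMB8, TAP1, TAPBP, B2M and PSMB10, and no match was found in the windows of HLA-B and PSMB9. Of the 7 members with a match, 4 were higher in the KMO siRNA array and 3 lower, so a match to this motif did not go with 1 direction. The match of TAP1 begins 134 bases before its start, within the stretch between the starts of TAP1 and PSMB9, and that of PSMB10 begins 21 bases before the start. The TAP1 match lies beyond the 250 bases searched before the start of PSMB9. The window length thus decides that it counts for TAP1, which was lower, and not for PSMB9, which was higher. The gamma-activated motif TTCNNNGAA was in 2 of the 11 windows (18.2%, against 7.66% of all), those of PSMB8 and TAP1, 1 higher and 1 lower. CCAAT was in 5 (45.5%, against 34.6%), those of HLA-B, HLA-F, TAP1, PSMB9 and B2M, 1 higher and 4 lower. The windows of TAP1 and PSMB9 share 13 bases, and their CCAAT match is the same site. That site is therefore counted for both genes, once as higher and once as lower. The NF-kappaB consensus was in 4 (36.4%, against 5.91%), those of HLA-B, TAP1, TAPBP and B2M, 1 higher and 3 lower. The part of any motif in the directions was not tested. All motifs were searched on both strands, and 0 matches of different motifs overlapped. The motifs were chosen as textbook elements of class I promoters after the levels had been seen, and a match describes letters, not binding.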

How the data were processed

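Total RNA of 2 cultures was hybridised to Affymetrix Human Genome U133 Plus 2.0 arrays, 1 per condition. The deposited values are log2 levels that the authors made by RMA, per the labels, which corrects background, quantile normalizes and summarises probes per probe set; Affymetrix Expression Console is named in the submitters' processing notes, and its version is not given in the sources used here. Sorted values of both arrays differed by at most 0.064, so a shift common to all transcripts cannot be seen, and levels have no true zero. Arrays have no counts, and their number limits the precision.

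Of the probe sets, 41091 carried 1 gene and 1801 several, which named none; symbols were updated by gene identifier against RefSeq for 41037. Differences, counts at 1.5-fold and 2-fold, and medians were computed with Python 3.11.15 and pandas 2.3.3, and the code was tested on simulated data. A gene's value is its probe set with the highest mean, at a minimum mean of 6. The members and lists were chosen with earlier results of these data known. Named genes are all members, PSMB5, PSMB6 and PSMB7, IRF1, RFX5, CIITA, IFNGR1 and IFNGR2, and from each list the measured genes with the largest absolute differences, up to 3; others were chosen after their values were seen. Of the marker lists, 7 of 9 breast and line markers were measured with differences led by KRT8 (0.17), CAV1 (0.16) and KRT18 (0.15), and 1 of 18 genes of unrelated tissues was, MBP, at -0.63. The alternatives were other minimum levels, the mean of all probe sets, no probe sets ending in _x_at or _s_at, levels under 6 taken as 6, and arrays centred on their measured genes.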

Additional observations from a re-analysis of the deposited data

How the results depend on the processing

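Of 95 values computed under an alternative, 84 moved by no more than 0.1 on the log2 scale or kept their count. The sign changed in 6, all of them medians of lists or of the members and none past 1.5-fold. The differences of all 9 measured members were among those that stayed within 0.1 wherever an alternative gave a value, and the count of members at 1.5-fold stayed at 1 higher and 0 lower. Most of these checks could not move a difference. No measured member had a gene value under 6 on either array, and centring moved all members by the same amount. TAP1, PSMB8, PSMB9 and PSMB10 have 1 probe set each. Leaving out _x_at and _s_at probe sets kept the same probe set for TAP2, TAPBP, PSMB9 and PSMB10. Only averaging the probe sets of HLA-B, HLA-F, B2M and TAPBP was free to change a difference. TAP2 gave no value with the mean of all probe sets, so that check left it out, and its measured probe sets ran from 0.16 to 0.54. The median of the members moved from 0.11 to -0.045 with the mean of all probe sets, where TAP2 falls under the minimum and 8 members remain, to 0.52 once _x_at and _s_at probe sets were left out, where 4 remain, and to 0.0062 with no minimum level. The sign of that median is therefore not settled. With the mean of all probe sets the excess of PSMB10 over PSMB7 was 0.58 and the median of the leukocyte markers 0.0018, a change of sign. With those probe sets left out, the medians were -0.38 for the other class I and class I-like genes and -0.14 for the regulators, which changed its sign. With no minimum level they were 0.043 for the interferon gamma list, also a change of sign, 0.40 for class II genes, 0 for leukocyte markers and -0.029 for genes of unrelated tissues. The peptide loading median changed sign within 0.1 of its value, to -0.07 with the mean of all probe sets and -0.0016 with _x_at and _s_at probe sets left out. No paired analysis was possible because each condition has 1 array. Signal limits NLRC5, whose level was under the minimum on both arrays.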
